A study of Homo sapiens with 8 samples.

Results

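The genes described here are 10 surface and lysosomal markers of monocytes and macrophages, taken by symbol from the 17912 genes listed. They are the signalling adaptors TYROBP and FCER1G, the antibody receptors FCGR1A and FCGR2A, the growth factor receptor CSF1R, the sialic acid-binding lectins CD33 and SIGLEC1, the lipopolysaccharide co-receptor CD14, the lysosomal glycoprotein CD68 and the membrane protein TM4SF19. They were chosen by name, with no threshold on their values. RNA was sequenced from NKM-1, a long-established leukemia line of human myeloid origin that is labelled as wild type in every library. The cells had received SF153 (30 uM) or its solvent DMSO for 48 h. The title of the series describes an inhibitor of splicing factors that carry a U2AF homology motif. There were 4 libraries per treatment, 2 from batch 1 and 2 from batch 2, named below by batch and library number (DMSO 1.1, 1.2, 2.1 and 2.2, and the same for SF153). All cells came from 1 cell line, and nothing in the labels says that the 2 libraries of a batch came from separate cultures. The p-values therefore measure the spread between libraries, which may be technical.

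Monocytes and macrophages clear antibody-coated particles, dying cells and microbes. Their activating Fc receptors bind the constant part of antibodies, and FCGR1A needs the Fc receptor gamma chain FCER1G to reach the cell surface and to signal, whereas FCGR2A carries an activation motif in its own tail. TYROBP (DAP12) does the same work for receptors such as the TREM and CD300 families, and both adaptors recruit the kinase SYK. CSF1R, the receptor for the growth factors CSF1 and IL34, supports survival and differentiation of the lineage. CD33 and SIGLEC1 belong to the Siglec family; CD33 carries inhibitory motifs and is a marker of myeloid leukemia, and SIGLEC1 (CD169) is an interferon-inducible adhesion receptor of macrophages.

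The deposited names call the values both CPM and TPM, which differ in whether a level is divided by transcript length, and they are treated here as a signal of TPM type. Over 1905 genes at 0 in at least 1 library, the median of the smallest value above 0 was 0.744 for transcripts of up to 600 nucleotides and 0.205 for those over 2000, so low values fell with length. The unit is not settled by this, and the order of levels between genes holds only if the values are per length. Column sums were 828381 in SF153 2.1 and 835840 in SF153 2.2, against 990815 to 1027119 in the other 6 libraries. The read depth is unknown. Differences given by batch below use the authors' values without rescaling, so those of batch 2 include this gap in totals. The mitochondrial genome gave 16.8% of the signal in SF153 2.1 and in SF153 2.2, against 9.17% to 9.92% in the other 6 libraries. RN7SK, an abundant noncoding RNA, gave 18.7% in SF153 1.1 and 18.2% in SF153 1.2, against 11.4% to 13.9% in the other 6. The myeloid label was matched by MPO, myeloperoxidase, with a mean signal of 740.3 in DMSO and 469.6 in SF153. CSF1R and CD33 were abundant in DMSO, above 97.1% and 91.9% of all listed genes by mean signal, whereas CD14, a defining marker of mature monocytes, was below 1 in every library and above only 9.26% of genes.

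Promoter sequences are shown because several of these genes carry the same short element near their start. The transcription factor encoded by SPI1 binds purine-rich DNA with the core GAGGAA and is a known regulator of monocyte genes. RefSeq promoters on GRCh38.p14, from 250 bases before to 50 after a start, were found for 9 of the 10 genes, with SIGLEC1 the exception. GAGGAA was present on either strand in 7 of the 9, against 27.9% of all 35116 promoters in the table. All 7 had a copy within 100 bases before the start, against 10.1% of all promoters, a window chosen after the matches were seen. The 30 bases around the copy nearest the start are given on the gene's own strand, with capitals marking GAGGAA or its reverse complement TTCCTC.
TYROBP, chr19:35908288-35908317: cccgcctcagacTTCCTCcttcacttgcct
CD33, chr19:51225058-51225087: ccctccactcccTTCCTCttttctgctcac
CSF1R, chr5:150086551-150086580: aaggagGAGGAAGAGGAAaacaagacaaac
FCGR1A, chr1:149782636-149782665: aaggcaatttccTTCCTCttttctaatttg
FCGR2A, chr1:161505400-161505429: gaaaccatttccTTCCTCttttctaagctt
CD68, chr17:7579578-7579607: tgagactttcatTTCCTCctttccaagaga
CD14, chr5:140633254-140633283: ggggctggctcgGAGGAAgagaggtgggga

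The element began 10 bases before the start in TYROBP and CD33, 14 in CSF1R, 45 and 46 in FCGR2A and FCGR1A, 48 in CD68 and 96 in CD14, counted from the start in the RefSeq table. Other transcripts start further upstream in some of these genes. The 30 bases shown lay wholly within exons annotated in GENCODE 29 for CSF1R, CD68 and CD14, with 24 of them in exons for CD33, 8 for TYROBP and 0 for FCGR1A and FCGR2A. CSF1R held a tandem pair, the other copy at 20 bases, and CD33 a further one at 90. FCGR1A and FCGR2A shared an uninterrupted run of 20 bases, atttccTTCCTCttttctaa, starting 52 and 51 bases before their starts. The 7 genes with the element included 1 that rose (CD33), 3 that fell (TYROBP, CSF1R and FCGR2A), 2 that did not pass the test (FCGR1A and CD68) and CD14, which was too low to test. FCER1G and TM4SF19 had no GAGGAA in the window. TTCNNNGAA, the letters of a STAT site, was found in FCGR1A, 93 bases before the start, and CD14, 123 before, against 7.66% of promoters. The core of an interferon response element, GAAA repeated after a gap of 2 bases, was found in 0 of the 9, against 3.57%. These are matches of letters only.

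Across the 10 markers the response to SF153 was divided. SIGLEC1, CD33 and TM4SF19 rose, and TYROBP, FCER1G, CSF1R and FCGR2A fell, by limma on log2(signal + 1) with Benjamini-Hochberg adjustment over 15542 genes and a threshold of 0.05. FCGR1A and CD68 did not pass the test, and CD14 was left out because its mean signal was below 1. The other 9 had a mean above 1 in each treatment. Thus 7 of 9 were called, against 37.2% of all genes tested, 3 of them higher against 13.0% and 4 lower against 24.3%. The libraries of the treatments did not overlap for 6 of the 9, against 36.8% of genes, 3 higher (13.2%) and 3 lower (23.6%). The median log2 difference, SF153 minus DMSO, was 0.09 over the 9 and -0.03 over all genes tested. Because mitochondrial and small noncoding RNA took unequal shares of the libraries, the test was repeated after those genes were taken out and each library was rescaled, called the reduced scaling below. It moved the median of all genes up by 0.30. Of the 9 markers 3 were then called higher, against 29.6% of genes, and 2 lower, against 12.8%. After quantile normalization 3 were higher, against 20.8%, and 3 lower, against 18.1%. In bulk RNA, fewer cells that express a gene and less RNA per cell cannot be told apart.

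**Figure D1:**
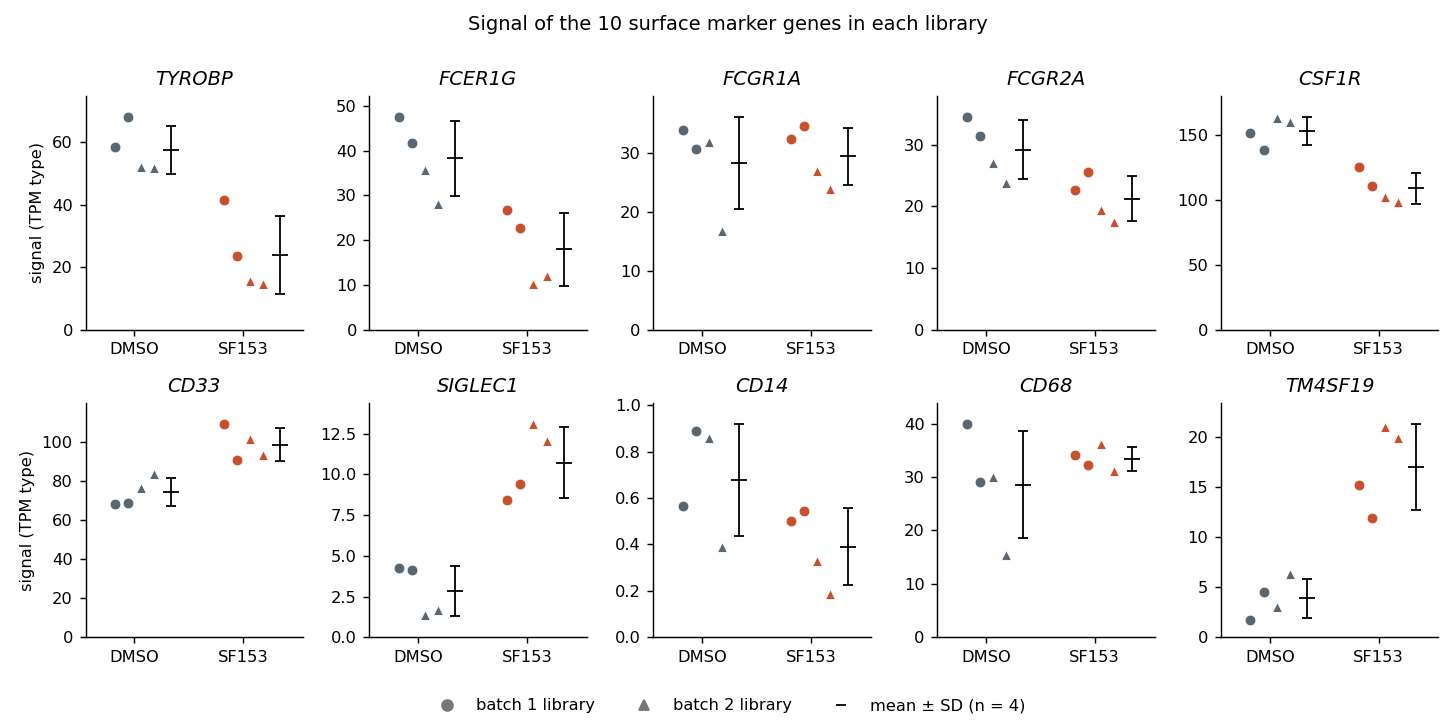
Signal (TPM type, linear axis from 0, each panel with its own scale) of the 10 marker genes in each library, with circles for batch 1, triangles for batch 2 and bars for the mean ± SD of 4 libraries. SF153 libraries lie wholly below DMSO for TYROBP, FCER1G and CSF1R and wholly above for CD33, SIGLEC1 and TM4SF19.

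The adaptors were the markers with the largest falls. TYROBP lies on chr19:35904401-35908295 (GRCh38, minus strand). Its signal was 58.5, 68.1, 52.0 and 51.9 in DMSO 1.1 to 2.2 and 41.6, 23.6, 15.7 and 14.5 in the SF153 libraries in the same order. Every SF153 library was below every DMSO library, and the 2 of batch 2 were the lowest. The mean fell from 57.7 ± 7.64 to 23.8 ± 12.5 (SD, n = 4 per treatment), a log2 difference of -1.35 ± 0.28 (SE, limma adjusted p = 0.00439), with -0.99 in batch 1 and -1.72 in batch 2. FCER1G, on chr1:161215234-161220699 (plus strand), had 47.5, 41.7, 35.8 and 28.0 in DMSO and 26.8, 22.8, 10.2 and 12.1 in SF153. The groups did not overlap, although DMSO 2.2 and SF153 1.1 differed by little. The mean fell from 38.3 ± 8.36 to 18.0 ± 8.11 (log2 difference -1.13 ± 0.29, limma adjusted p = 0.0132). The ratio of TYROBP to FCER1G within a library was 1.54 ± 0.26 in DMSO and 1.33 ± 0.26 in SF153, with overlapping libraries (exact two-sided permutation p = 0.314). The call of TYROBP was lost in batch 1 alone (adjusted p = 0.0688), and that of FCER1G when the libraries of a treatment and batch were averaged (0.0856).

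Of 16 further tested genes that signal with or after these adaptors, 6 fell and 1 rose (median -0.33). Over all genes tested, 24.3% fell and 13.0% rose. SYK, the kinase that binds phosphorylated activation motifs, fell from 55.2 ± 3.47 to 25.3 ± 2.02 (-1.10 ± 0.08, limma adjusted p = 3.05e-05). With the authors' values SYK fell by 1.10 in each batch. PIK3CG, a phosphoinositide kinase, fell by 0.56. The transmembrane scaffold LAT2 fell by 0.50, from 248.2 ± 11.8 to 175.1 ± 14.9. The phospholipase PLCG2 had 121.9 ± 9.18 and 121.4 ± 7.64. Under the reduced scaling 7 of 17 were higher, against 29.6% of all genes, and 2 lower, against 12.8%. LAT2 was then no longer called.

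Receptors that pair with TYROBP moved the other way from the adaptor in 3 cases. Of 9 tested, 3 rose, against 13.0% of all genes, and 1 fell, against 24.3% (median 0.44). With the reduced scaling 5 rose, against 29.6%. CD300LB, an activating receptor of myeloid cells, rose from 4.44 ± 0.46 to 9.77 ± 0.80 (0.99 ± 0.12, limma adjusted p = 0.00021). CLEC5A, a C-type lectin, rose from 55.4 ± 3.93 to 80.5 ± 6.80, and PILRB, a paired immunoglobulin-like receptor, from 155.1 ± 9.46 to 224.5 ± 24.8. KLRC2, better known from natural killer cells, fell from 3.91 ± 0.84 to 2.08 ± 0.55 (limma adjusted p = 0.0204), a call that 6 settings ended, among them the fits without DMSO 2.1 or SF153 2.1. SIGLEC14 had 2.73 ± 0.42 and 2.57 ± 0.39.

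Of the antibody receptors, FCGR1A did not pass the test and FCGR2A fell. FCGR1A (CD64), the high-affinity IgG receptor on chr1:149782671-149792518 (plus strand), had 34.0, 30.7, 32.0 and 16.8 in DMSO and 32.4, 34.6, 27.0 and 23.9 in SF153. The groups overlapped, and DMSO 2.2 was the lowest of all 8. The means were 28.4 ± 7.85 and 29.5 ± 4.89 (log2 difference 0.09 ± 0.21, limma adjusted p = 0.776), and the gene was not called under any of 23 other settings. Without DMSO 2.2 the difference was -0.14 (adjusted p = 0.463). The ratio of FCER1G to FCGR1A within a library was 1.40, 1.36, 1.12 and 1.67 in DMSO and 0.83, 0.66, 0.38 and 0.50 in SF153. No SF153 library reached the lowest DMSO ratio (log2 difference -1.28, exact two-sided permutation p = 0.0286, the smallest that 4 against 4 can give, and 0.0667 adjusted over 7 sums and ratios that were chosen after values were seen). A ratio within a library does not depend on a scaling factor of that library.

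FCGR2A (CD32A), on chr1:161505430-161524013 (plus strand), had 34.5, 31.5, 27.0 and 23.7 in DMSO and 22.6, 25.6, 19.4 and 17.4 in SF153. SF153 1.2 lay above DMSO 2.2, so the groups overlapped. The mean fell from 29.2 ± 4.76 to 21.2 ± 3.61 (log2 difference -0.44 ± 0.15, limma adjusted p = 0.0394), with -0.44 in each batch by the authors' values. The SF153 libraries of batch 2 had the lowest column sums, and whether the batches were alike under other scalings was not tested. The call was lost in 15 of 23 settings, among them each of 4 other scalings (-0.37 to -0.13, adjusted p = 0.074 to 0.429) and without DMSO 1.1, 1.2 or 2.1 or SF153 1.1, 2.1 or 2.2 (adjusted p = 0.0523 to 0.105). With batch as a block it held (adjusted p = 0.00375).

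Both receptors have near-identical copies, between which reads can be split, so that single values are uncertain. FCGR1BP rose from 13.8 ± 1.52 to 21.7 ± 2.04 (log2 difference 0.62 ± 0.11, limma adjusted p = 0.00161) and FCGR1CP from 1.84 ± 0.80 to 3.95 ± 1.16 (0.83 ± 0.26, 0.0325). The call of FCGR1CP was lost without DMSO 1.1, DMSO 2.1, SF153 2.1 or SF153 2.2 (0.60 to 0.84). Summed with FCGR1A, these copies had 44.0 ± 7.58 in DMSO and 55.1 ± 4.77 in SF153 (0.33, exact two-sided permutation p = 0.0571), and the exact p was 0.0286 under 4 other scalings (0.41 to 0.66). FCGR2C, a hybrid of the FCGR2A and FCGR2B genes, rose from 22.9 ± 1.93 to 30.5 ± 2.19 (0.40 ± 0.09, limma adjusted p = 0.0065). FCGR2B, the inhibitory receptor, had 6.24 ± 1.49 and 7.41 ± 0.63 (adjusted p = 0.294).

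The ratio of FCGR2C to FCGR2A was 0.74, 0.68, 0.85 and 0.91 in DMSO and 1.27, 1.14, 1.59 and 1.92 in SF153. FCGR2A was thus the larger of the pair in every DMSO library and the smaller in every SF153 library (0.87, exact two-sided permutation p = 0.0286, adjusted 0.0667). The sum of FCGR2A, FCGR2B and FCGR2C was 58.3 ± 6.88 in DMSO and 59.1 ± 1.78 in SF153, with overlapping libraries (0.03, exact two-sided permutation p = 0.8). Under the reduced scaling that sum was higher by 0.35 (exact p = 0.0286). Of all 7 further Fc receptor genes tested, 4 rose, against 13.0% of all genes, and 1 fell, against 24.3% (median 0.40). Those that rose were FCGRT and the copies FCGR1BP, FCGR1CP and FCGR2C. Reads of these copies can be split with FCGR1A and FCGR2A, so this count is not independent of the values above. FCGRT, the neonatal Fc receptor that recycles IgG, rose from 57.6 ± 5.18 to 89.3 ± 12.9 (0.62 ± 0.11, limma adjusted p = 0.00174). TRIM21, a cytosolic antibody receptor, fell from 12.8 ± 0.99 to 7.55 ± 0.88, and FCMR, the IgM receptor, had 10.9 ± 2.53 and 10.3 ± 4.69.

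**Figure D2:**
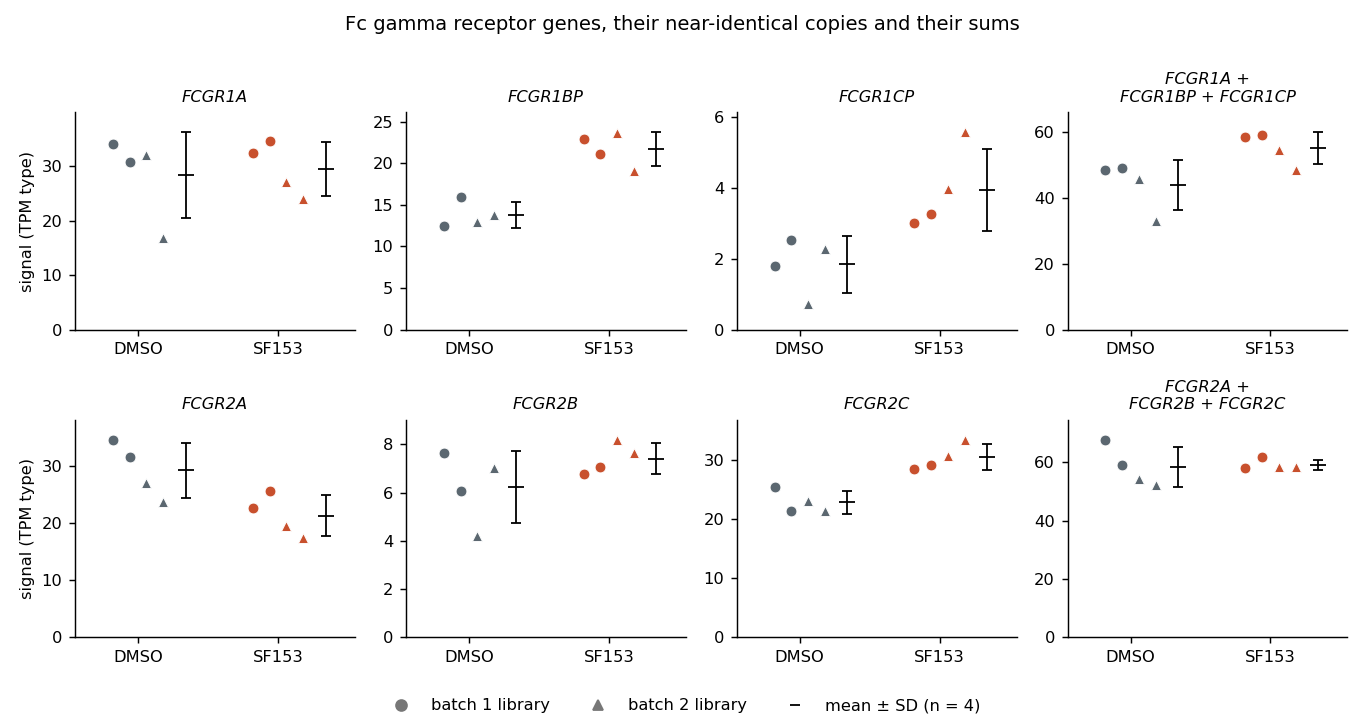
Signal (TPM type, linear axis from 0) of FCGR1A and FCGR2A, of their near-identical copies and of the sums, by library (circles batch 1, triangles batch 2, bars mean ± SD of 4). FCGR2C is higher and FCGR2A lower on average in SF153, and the sum of the 3 FCGR2 genes has means of 58.3 and 59.1.

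CSF1R, the most abundant of the 10, lies on chr5:150053291-150113372 (minus strand). Its signal was 151.5, 138.5, 162.5 and 159.5 in DMSO and 125.1, 110.2, 102.1 and 98.1 in SF153. All SF153 libraries were below all DMSO libraries, with the lowest values in batch 2. The mean fell from 153.0 ± 10.7 to 108.9 ± 12.0 (log2 difference -0.49 ± 0.09, limma adjusted p = 0.00233), with -0.30 in batch 1 and -0.68 in batch 2. The SF153 libraries of batch 2 also had the lowest column sums. After rescaling to equal totals the difference over both batches was -0.36 (limma adjusted p = 0.00909), and the batches were not compared on that scale. The call was lost under the reduced scaling (-0.17, adjusted p = 0.13), after a trend on transcript length and mean signal was removed (-0.22, 0.0522) and in batch 1 alone (0.0872).

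Of 14 other tested genes of the CSF1 receptor axis, 4 fell and 2 rose (median -0.10). The shares over all genes tested were near those, at 24.3% and 13.0%. With the reduced scaling 1 fell and 5 rose, against 12.8% and 29.6% of genes. The adaptors GRB2 and SHC1, which link receptor tyrosine kinases to RAS, fell by 0.54 and 0.59. GAB2, a docking protein for phosphoinositide 3-kinase, rose from 12.7 ± 1.03 to 18.3 ± 4.47 (limma adjusted p = 0.0484). That call was lost without any one library other than SF153 1.2 (0.36 to 0.50). SHC1 was not called without DMSO 1.2 or SF153 1.2 (-0.57 and -0.50). PIK3R1, the regulatory subunit of phosphoinositide 3-kinase, had 80.0 ± 4.38 and 80.6 ± 3.16.

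CD33, on chr19:51225064-51243860 (plus strand), rose modestly. It had 68.4, 68.9, 76.3 and 83.3 in DMSO and 108.9, 90.5, 101.4 and 93.2 in SF153, with no overlap. The mean rose from 74.2 ± 7.07 to 98.5 ± 8.32 (log2 difference 0.40 ± 0.09, limma adjusted p = 0.0063). By the authors' values the difference was 0.53 in batch 1 and 0.28 in batch 2, where the SF153 libraries had the lowest column sums. Whether the batches differed under other scalings was not tested. The call was lost in batch 2 alone (adjusted p = 0.0827) and after averaging by treatment and batch (0.0575), and the difference was 0.48 to 0.73 under the 4 other scalings. The ratio of CD33 to CSF1R was 0.45, 0.50, 0.47 and 0.52 in DMSO and 0.87, 0.82, 0.99 and 0.95 in SF153. The libraries of each treatment stood close together, at 0.49 ± 0.03 and 0.91 ± 0.08 (log2 difference 0.90, exact two-sided permutation p = 0.0286, adjusted 0.0667). CD33 was well below CSF1R in every DMSO library and close to it in every SF153 library. SIGLEC22P, which lies near CD33 on chr19, rose from 10.1 ± 1.43 to 18.0 ± 5.48 (0.73 ± 0.21, limma adjusted p = 0.0194). Its call was lost in 4 settings. Whether reads were split between CD33 and SIGLEC22P was not tested.

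**Figure D3:**
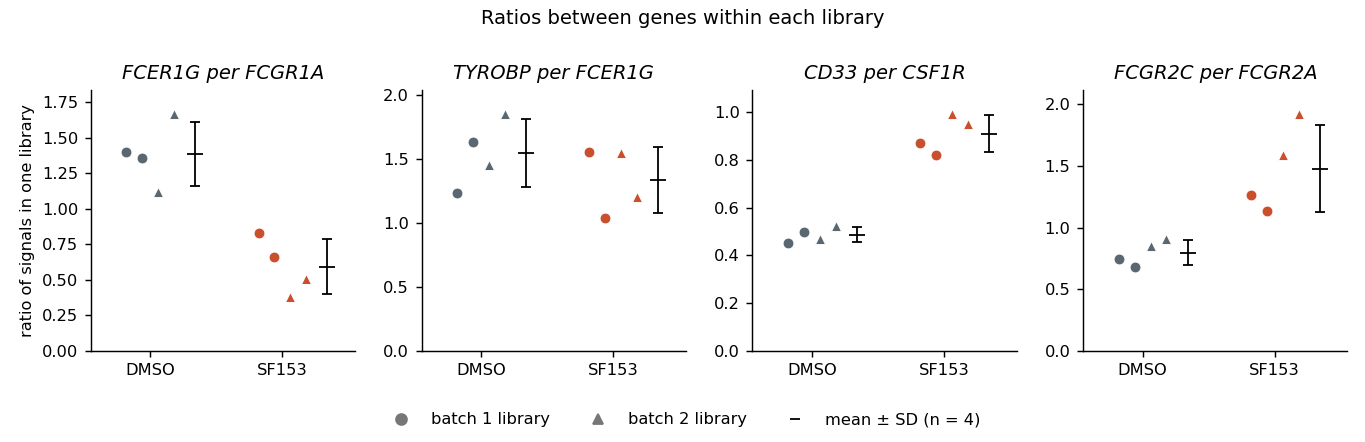
Ratio of the signals of 2 genes within each library (linear axis from 0), with circles for batch 1, triangles for batch 2 and bars for the mean ± SD of 4 libraries. SF153 and DMSO do not overlap for FCER1G per FCGR1A, CD33 per CSF1R and FCGR2C per FCGR2A, and overlap for TYROBP per FCER1G.

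SIGLEC1, on chr20:3686970-3707128 (minus strand), was one of the least abundant markers in DMSO. It had 4.26, 4.13, 1.36 and 1.66 in DMSO and 8.42, 9.41, 13.1 and 12.0 in SF153. Batch 1 was the higher in DMSO and the lower in SF153, and every SF153 library was above every DMSO library. The mean rose from 2.85 ± 1.56 to 10.7 ± 2.18, a ratio of 3.76 (log2 difference 1.68 ± 0.29, limma adjusted p = 0.00147), and the gene was called under all 23 other settings (0.93 to 2.43). The difference was 0.93 in batch 1 and 2.43 in batch 2. The treatment by batch term was 1.50 ± 0.25 (limma adjusted p = 0.0362), where 1.15% of all genes were called. It rests on 2 libraries per treatment and batch, which may share a culture, so its p measures the spread between such libraries. The 8 other tested markers were not called for it (adjusted p = 0.292 to 0.996). The term was not called without any one library (1.42 to 1.59, adjusted p = 0.0822 to 0.158), with a pseudocount of 5 (0.83, 0.0635), without the intensity trend (0.0821) or after trend removal (0.0532).

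Interferon-stimulated genes showed a batch pattern like that of SIGLEC1. Of 24 tested, 13 rose, against 13.0% of all genes, and 2 fell, against 24.3% (median 0.49). With the reduced scaling 18 of 25 rose, against 29.6%, and 1 fell, against 12.8%. In DMSO, both batch 1 libraries were above both batch 2 libraries for 16 of the 24, against 22.3% of all genes, and below for 0, against 16.7%. In SF153 they were above for 2 (26.3%) and below for 13 (17.8%). The median log2 difference between the treatments was 0.23 in batch 1 and 0.81 in batch 2. The treatment by batch term was called for 2 of the 24, IFI44L and MX1, both with the larger rise in batch 2.

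MX1, an antiviral GTPase, had 32.7, 28.4, 13.5 and 15.2 in DMSO and 62.7, 52.2, 71.1 and 64.1 in SF153 (log2 difference 1.53 ± 0.26, limma adjusted p = 0.00148). OAS3, an oligoadenylate synthetase, rose from 10.8 ± 3.51 to 27.5 ± 2.91, and XAF1, an apoptosis regulator, from 74.8 ± 11.3 to 159.4 ± 8.71. OASL had 1.31 ± 0.40 and 1.34 ± 0.35. ISG15, an interferon-induced ubiquitin-like modifier, and HERC5, its ligase, named after their values were seen, were the 2 that fell, by 0.88 and 0.58. The part of this batch difference between the DMSO libraries in the result for SIGLEC1 was not tested.

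**Figure D4:**
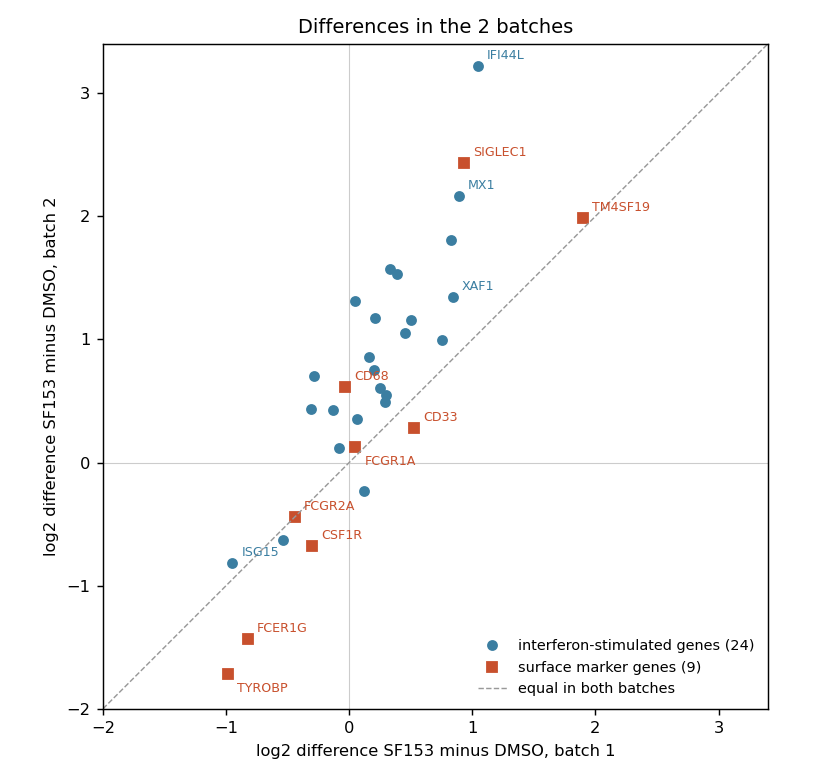
Log2 difference SF153 minus DMSO of log2(signal + 1) in batch 1 (horizontal axis) and batch 2 (vertical axis), 2 libraries per treatment in each, for the 9 tested markers (squares) and 24 interferon-stimulated genes (circles), with equal differences on the dashed line. SIGLEC1 (0.93 and 2.43) lies above the line near MX1, and TM4SF19 (1.90 and 1.99) lies close to it. The authors' values are shown, without rescaling of the library totals.

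Of 6 further Siglec family genes tested, 2 rose, against 13.0% of all genes, and 1 fell, against 24.3% (median 0.31). CD22, a Siglec best known from B cells, rose from 1.34 ± 0.94 to 4.01 ± 0.45 (1.18 ± 0.28, limma adjusted p = 0.00878). Its DMSO libraries also differed by batch, with 1.89 and 2.37 in batch 1 and 0.68 and 0.43 in batch 2. SIGLEC6 rose from 33.4 ± 1.07 to 43.7 ± 6.36 (adjusted p = 0.0187), and SIGLEC10, an inhibitory receptor, fell from 13.1 ± 3.47 to 6.44 ± 2.10 (-0.93 ± 0.22, adjusted p = 0.00862). CD22 and SIGLEC6 were not called after averaging by treatment and batch, nor were they and SIGLEC10 in batch 1 alone, where the differences were 0.57, 0.44 and -0.48.

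CD14, on chr5:140631728-140633701 (minus strand), had 0.56, 0.89, 0.86 and 0.39 in DMSO and 0.50, 0.55, 0.33 and 0.19 in SF153. The groups overlapped, at 0.68 ± 0.24 and 0.39 ± 0.16 (exact two-sided permutation p = 0.114), and limma did not call it without the filter. Of 17 Toll-like receptor and related genes tested, 5 fell, against 24.3% of all genes, and 1 rose, against 13.0% (median -0.05). The reduced scaling gave 3 of 18 that fell, against 12.8%, and 4 that rose, against 29.6%. TLR9, which senses DNA in endosomes, fell from 7.27 ± 0.76 to 2.76 ± 0.83 (-1.16 ± 0.18, limma adjusted p = 0.00086). LY86 (MD-1), the partner of CD180, fell from 60.4 ± 5.69 to 29.7 ± 11.5, and the adaptor MYD88 from 27.0 ± 3.62 to 17.0 ± 1.59. LY96 (MD-2), the partner of TLR4, fell from 11.9 ± 2.40 to 5.95 ± 4.28 (adjusted p = 0.0409). That call was lost in 13 settings, among them without any one library other than SF153 1.2 (-1.16 to -0.84). TLR4 itself had 23.3 ± 1.48 and 23.4 ± 1.31.

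CD68, on chr17:7579467-7582113 (plus strand), had 39.8, 29.1, 30.0 and 15.5 in DMSO and 34.1, 32.3, 36.1 and 31.1 in SF153. The SF153 libraries lay within the range of the DMSO libraries, and DMSO 2.2 was the lowest. The means were 28.6 ± 10.0 and 33.4 ± 2.20 (log2 difference 0.29 ± 0.23, limma adjusted p = 0.362), and without DMSO 2.2 the difference was 0.03. Of 12 relatives and scavenger receptors tested, 3 rose, against 13.0% of all genes, and 3 fell, against 24.3% (median -0.07). LAMP1 and LAMP2, the major glycoproteins of the lysosomal membrane and relatives of CD68, fell from 54.4 ± 5.66 to 32.3 ± 6.21 and from 36.2 ± 6.89 to 21.0 ± 2.23 (limma adjusted p = 0.00211 and 0.00232). CD163, the haemoglobin scavenger receptor of macrophages, rose from 4.19 ± 1.71 to 9.13 ± 1.81 (1.01 ± 0.24, adjusted p = 0.00853). LRP1, a large endocytic receptor, rose by 0.56 (adjusted p = 0.0377). That call held without DMSO 2.2 or SF153 1.2 and was lost without any other single library (0.44 to 0.57). CXCL16, a scavenger receptor and chemokine, had 1.62 ± 0.68 and 1.71 ± 0.46.

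TM4SF19, on chr3:196319342-196338503 (minus strand), encodes a membrane protein of the L6 family that is expressed in osteoclasts and macrophages. It had 1.70, 4.53, 3.02 and 6.27 in DMSO and 15.1, 11.9, 21.0 and 19.9 in SF153, with no overlap. The mean rose from 3.88 ± 1.97 to 17.0 ± 4.25, a ratio of 4.38 (log2 difference 1.94 ± 0.30, limma adjusted p = 0.000802). With the authors' values the difference was alike in the batches, at 1.90 and 1.99. The gene was called under all 23 other settings. The antisense gene TM4SF19-AS1 rose from 2.63 ± 0.66 to 5.26 ± 1.75 (0.77 ± 0.23, adjusted p = 0.0246), a call lost without DMSO 1.1, SF153 2.1 or SF153 2.2 (0.59 to 0.76). The kit marks strand, but the sources used here do not say whether the quantification used it, so reads of these partners may not be told apart. The readthrough gene TM4SF19-DYNLT2B was listed at 0 in 7 libraries and at 1.20 in SF153 2.2. Of 5 other genes of the family looked up, 0 had values to use here.

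Other monocyte and macrophage markers went both ways, as did all genes tested. Of 35 tested, 9 rose, against 13.0% of all genes, and 12 fell, against 24.3% (median -0.21). With the reduced scaling 14 of 36 rose, against 29.6%, and 7 fell, against 12.8%. ITGAX (CD11c), an integrin of macrophages and dendritic cells, rose from 35.0 ± 1.40 to 142.7 ± 8.57 (2.00 ± 0.07, limma adjusted p = 1.99e-06). AIF1 (IBA1), an actin-binding protein of macrophages, fell by 2.00 ± 0.27 on the log2 scale, from 78.7 ± 8.84 to 20.4 ± 9.05 (adjusted p = 0.000427). The chemokine receptors CCR2, of classical monocytes, and CX3CR1, of patrolling monocytes, fell from 30.4 ± 4.06 to 11.0 ± 3.06 and from 9.44 ± 0.64 to 2.97 ± 0.89. PLAUR, the urokinase receptor, had 57.4 ± 6.61 and 57.4 ± 1.88.

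Of 22 transcription factors of the lineage tested, 5 rose, against 13.0% of all genes, and 7 fell, against 24.3% (median -0.15). The reduced scaling gave 8 that rose, against 29.6%, and 1 that fell, against 12.8%. IRF9 and STAT2, subunits of the factor that drives interferon-stimulated genes, rose from 37.2 ± 7.76 to 68.9 ± 6.01 and from 44.1 ± 5.40 to 76.9 ± 5.97 (limma adjusted p = 0.000962 and 0.000244). TFEC, a relative of the lysosomal regulator TFEB, rose from 11.3 ± 0.52 to 19.0 ± 1.02. CEBPA, which commits progenitors to the myeloid line, fell from 87.6 ± 4.48 to 51.7 ± 8.97 (-0.76 ± 0.12, adjusted p = 0.000795). MYB, a factor of progenitors, had 226.2 ± 1.59 and 216.1 ± 8.52. Every SF153 library was below every DMSO library (exact two-sided permutation p = 0.0286). Even so, MYB was not called with the authors' values (limma adjusted p = 0.404), and it was higher under 3 other settings.

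In DMSO, taking the signal as per length, the order of mean signal was CSF1R, CD33, TYROBP, FCER1G, FCGR2A, CD68, FCGR1A, TM4SF19, SIGLEC1 and CD14. The ranges of neighbours overlapped from FCER1G to FCGR1A and for TM4SF19 with SIGLEC1. In SF153 the order was CSF1R, CD33, CD68, FCGR1A, TYROBP, FCGR2A, FCER1G, TM4SF19, SIGLEC1 and CD14. There CSF1R and CD33 overlapped, and so did every pair of neighbours from CD68 to SIGLEC1. These orders rest on the signal being per length, since the transcripts of the adaptors are much shorter than those of the other markers.

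TYROBP and FCER1G have the shortest transcripts of the 10, with 620 and 591 nucleotides in 5 exons each, against 1494 (CD33) to 6720 (SIGLEC1) for the others. After a trend on transcript length and mean signal was removed from every library, both were still called lower (-1.07 and -0.87, limma adjusted p = 0.00619 and 0.0216), and SIGLEC1, CD33 and TM4SF19 higher (1.61, 0.79 and 2.15). Under each of the 4 other scalings the same 5 were called, with TYROBP between -1.28 and -1.05, FCER1G between -1.06 and -0.84 and TM4SF19 between 2.00 and 2.37.

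**Figure D5:**
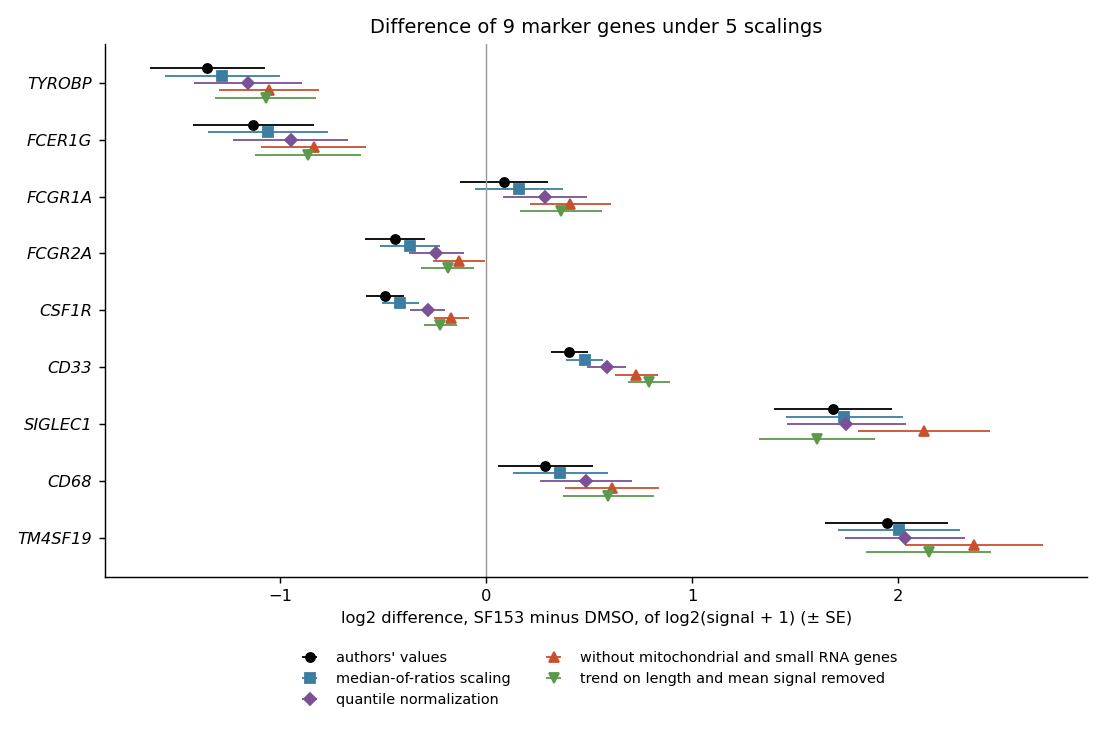
Log2 difference SF153 minus DMSO (± SE) of the 9 tested markers with the authors' values and under 4 other settings, which move the median of all genes by 0.07 to 0.30. TYROBP and FCER1G stay below 0 and CD33, SIGLEC1 and TM4SF19 above 0 in each, and FCGR2A and CSF1R come nearest to 0 under the reduced scaling, without mitochondrial and small RNA genes.

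Markers of other blood cells also moved with treatment. Of 9 myeloid progenitor and granulocyte markers 4 were listed (MPO, AZU1, PRTN3 and CTSG), with a summed signal of 1097 to 1235 in DMSO and 752.1 to 906.1 in SF153. MPO gave most of that sum, and AZU1 was not lower by mean, at 270.2 in DMSO and 291.9 in SF153. Of 6 B cell markers 3 were listed (CD79A, CD79B and PAX5), with 77.2 to 87.3 and 20.7 to 48.5, although PAX5 alone had means of 1.66 and 2.62. The T cell marker CD2, 1 of 6 listed, had 5.08 to 6.07 and 0 to 0.70, NK cell markers (2 of 6) 5.03 to 7.26 and 0.78 to 2.01, and the dendritic cell marker CD1C (1 of 6) 1.62 to 3.75 and 0.23 to 0.93. Of 7 erythroid, 5 megakaryocyte and 4 fibroblast markers looked up, 0 had values to use here. The summed signal of the 10 markers was 387.0 to 440.9 in DMSO and 322.4 to 415.6 in SF153. The part of these shifts in the differences of single markers was not tested.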

How the data were processed

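RNA of NKM-1 cells was sequenced in 8 libraries after ribosomal RNA removal by RNase H, per the labels' protocols. The deposited values, called both CPM and TPM, were treated as a signal of TPM type made by the authors. Their sums differ between libraries, the sources used here do not give the scaling, and the depth is unknown, so no counting intervals are given. The test planned for TPM was applied to this signal. Per the submitters' processing notes, which give no roles, the authors used CASAVA 1.8.2, STAR, Salmon, edgeR and the build GRCh38. Of the 8 columns, 4 were spelled differently from the labels and were matched by number, letter, index pair and sample number. Gene positions and lengths (longest basic transcript) came from GENCODE 29, which matched 17235 of 17912 genes, and promoters from RefSeq.

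The treatments were compared by limma 3.58.1 (R 4.3.3) without a batch term. The fit used log2(signal + 1), an intensity trend in the variance prior and genes whose mean signal reached 1. This scale understates changes of low genes. Calls are at a Benjamini-Hochberg adjusted p below 0.05 over all genes tested. Exact two-sided permutation tests (SciPy 1.17.1) served single quantities, with a smallest p of 0.0286. The procedure was tested on simulated data with independent libraries and few changed genes. That test cannot show how the p-values behave where libraries share a culture or batch. Markers, gene lists and sums were chosen with earlier results of these data known. The text names all 10 markers, their near-identical or overlapping genes and, per list, up to 4 called genes with the largest absolute difference and the 1 gene with the smallest; some genes under this rule are not reported here. The labels give each library a batch number, which pairs the treatments. Across genes, deviations of libraries from their treatment means had a mean r of 0.03 within a batch and -0.03 between batches. These values mirror each other because deviations cancel within a treatment. The difference between the batches in DMSO had an r of 0.07 with that in SF153. Alternatives were 23 settings of pseudocount, filter, scaling, variance model, batch, averaging, length trend and left-out libraries. Scalings were median-of-ratios, quantile, rescaling to equal totals, and the same after removal of 328 mitochondrial and small RNA genes (the reduced scaling).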

Additional observations from a re-analysis of the deposited data

Results flagged for a closer look

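The sum of FCGR2A, FCGR2B and FCGR2C was 61.8 in SF153 1.2, away from the 58.0 to 58.5 of the other SF153 libraries. The gap was 0.858 of the range of the 4 libraries, past the 95% critical value of Dixon's test. Of 34 such groups tested, this was the only one past it, and chance gives about 1 in 20. The range itself was narrower than that of the DMSO libraries, which ran from 52.2 to 67.7.

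The rise of SIGLEC1 was larger in batch 2 than in batch 1 by a log2 difference of 1.503 (limma adjusted p = 0.0362). That p rests on 2 libraries per treatment and batch, which may share a culture. Both treatments contributed. Batch 1 minus batch 2 was a log2 difference of 1.05 within the DMSO libraries and -0.45 within the SF153 libraries. The call was lost without any one library.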

How the results depend on the processing

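Of 207 values of the 9 tested markers under 23 settings, 185 stayed on their side of the threshold, 22 lost the call and 0 reversed a call. Of the 185, 2 had the other sign, FCGR1A without DMSO 2.2 (-0.14) and CD68 in batch 1 alone (-0.04), neither of them called. SIGLEC1 and TM4SF19 kept it throughout. All genes called numbered 5785, against 3427 with the libraries of a treatment and batch averaged, 3130 in batch 1 alone and 3311 in batch 2 alone, and markers called 7, against 4, 4 and 5; these settings hold fewer samples. The numbers were 4882 to 5370 genes and 6 to 7 markers without any one library. With batch as a block, the pairing gave 5942 genes and 7 markers and changed no call of a marker. Of the calls, 34.8% were higher, against 43.8% with median-of-ratios scaling, 53.4% with quantile normalization, 47.3% after rescaling, 69.9% under the reduced scaling and 53.8% after trend removal, with shifts of the median of 0.07, 0.10, 0.12, 0.30 and 0.09. The treatment by batch term was called for 1.15% of genes, against 0.634% under the reduced scaling, 0.777% after trend removal, 0.0772% without the intensity trend and 0.546% to 0.889% without any one library, lowest without DMSO 1.2; the cause was not tested. PLCG2, the sum of FCGR2A and FCGR2C and MYB differed by -0.005, -0.003 and -0.07 with the authors' values, none past the threshold. PLCG2 (0.32) and that sum (0.32) were higher under the reduced scaling. MYB was higher under quantile normalization (0.45), under the reduced scaling (0.26) and after trend removal (0.26). The depth is unknown, so markers near 1, such as CD14, cannot be judged for counting error.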
